A study of Mus musculus with 4 samples.

Results

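The microRNAs (miRNAs) of the miR-466, miR-467, miR-669 and miR-297 families were compared in mouse skin between skin treated with shikonin and skin treated with its solvent. They were chosen by name, as all chip entries of the 4 family numbers with any letter or arm ending, and made up 54 of the 710 miRNAs on the chip: 6 of miR-297, 20 of miR-466, 12 of miR-467 and 16 of miR-669. The families were picked because an earlier look at the same intensities had shown large differences between the treatments, so their shikonin-acetone differences are given as a description, with no test. Abdominal skin of female C57BL/6JNarl mice, 6 to 8 weeks of age, received 100 μl of acetone in which shikonin, a red naphthoquinone of Lithospermum erythrorhizon, was dissolved at 10 μg/μl (2 arrays), or 100 μl of acetone alone (2 arrays), and total RNA was taken after 24 hr. Both groups thus carried the solvent, and the design has no skin without it. The study speaks of biological sample replicates. Whether the 2 arrays of a group came from separate animals is stated in neither the labels nor the study, so the spread between them may be technical in part. RNA of whole skin was used, in which fewer cells of a type and less RNA per cell cannot be told apart.

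A miRNA hairpin is cut into a 5p strand and a 3p strand, and either can be loaded into Argonaute to repress messages that pair with its seed, bases 2 to 8. In the older naming used on the chip, a star marks the strand found less often, and an entry with neither star nor arm is the other strand or the only one named. Most genes of these families lie in a tandem array in an intron of the mouse Polycomb gene Sfmbt2, which is imprinted and transcribed in placenta and early embryo, and the mature strands are rich in alternating U and G on one arm and alternating C and A on the other. Single members have been studied in mouse cells. miR-466l was described to stabilise the Il10 message in macrophages and miR-669a to act on MyoD in progenitor cells. In the RefSeq table of GRCm38.p6, 81 genes of the families were listed, 71 of them inside Sfmbt2 on chromosome 2 and 10 elsewhere. By symbol, 42 of the 54 members had genes inside Sfmbt2 alone, 7 elsewhere alone and 3 in both places, and 2 had none listed.

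The mature sequences of 7 members were matched in RefSeq (GRCm38.p6), 6 by name and miR-466i as the 3p strand of its hairpin. They are shown because they hold both kinds of repeat, with the seed in capitals. The first 3 lines are strands with a run of alternating C and A, the last 4 strands with a run of alternating U and G.
miR-467f: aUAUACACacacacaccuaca
miR-466i: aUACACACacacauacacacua
miR-467g: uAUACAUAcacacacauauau
miR-466k: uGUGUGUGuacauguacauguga
miR-669n: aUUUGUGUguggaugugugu
miR-466j: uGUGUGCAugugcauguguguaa
miR-467h: aUAAGUGUgugcauguauaugu
No seed was shared between any of these 7 strands. The longest alternating run was 12 bases in miR-467f, 11 in miR-466i and 9 in miR-467g, and 9 in miR-466k, 8 in miR-669n and 7 each in miR-466j and miR-467h. Of the pairs, miR-466i and miR-467f, and miR-467f and miR-467g, were 5 edits apart, the smallest distance among the 7. All 7 lie outside Sfmbt2: miR-467f at chr11:69635419-69635439 (minus strand, within the span of Fxr2), miR-466i at chr13:17747552-17747573 (plus, Cdk13), miR-467g at chr5:34732872-34732892 (minus, Grk4), miR-466k at chr3:85467396-85467418 (plus, Gm31419), miR-669n at chr3:115979905-115979924 (plus, Slc30a7), miR-466j at chr10:60960802-60960824 (plus, no gene) and miR-467h at chr9:115381898-115381919 (plus, no gene). Probes on this chip are reverse complements of the mature strands, so members with nearly the same sequence have nearly the same probe, and signal of one may stand in the values of another. With 13.0% of members matched, shared sequence could not be checked across the families. The members can therefore not be taken as independent measurements.

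Each array carried 8 spots per miRNA. The median spot was 376 and 488 on the shikonin arrays and 352 and 416 on the acetone arrays. A miRNA was called above background when its median spot exceeded the median of 30 miRNAs of other tissues by more than 3 median absolute deviations; 207 and 269 miRNAs did so on the shikonin arrays and 235 and 258 on the acetone arrays. The skin label was checked against marker miRNAs. All 7 fibroblast and mesenchyme markers were above background on every array, and of 7 keratinocyte markers 6 and 4 were on the shikonin arrays and 7 and 7 on the acetone arrays. The summed median spots of the keratinocyte markers were 5985 and 4100 on the shikonin arrays and 13520 and 15332 on the acetone arrays, and those of the fibroblast markers 9309 and 10854 against 24837 and 24014. Those of 5 leukocyte markers were 2760 and 4145 against 2936 and 4753. Those of 4 striated muscle markers were 2852 and 4052 against 11150 and 7534, and those of 3 red blood cell markers 1188 and 1688 against 1220 and 1328. The sums do not hold for each marker: after quantile normalization 6 of the 7 fibroblast markers were lower with shikonin and 1 was higher (log2 difference 1.11). No marker was at 0, since no background was subtracted. The part of these cell types in the values below was not tested.

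Of the 54 members, 33 were above background on all 4 arrays, 14 on some and 7 on none. Spots were summarised by their median, quantile normalized between arrays and set on the log2 scale. The members were higher with shikonin as a group, and the difference stood in those above background. Over all 54 the median difference was 0.58 (log2), over the 656 other miRNAs -0.01. The 33 above background on all arrays all had positive differences, with a median of 1.12, against -0.44 for the 137 other miRNAs above background throughout. The 14 above background on some arrays had a median of 0.08 and the 7 on none of -0.02.

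Both shikonin arrays lay above both acetone arrays for 29 members (53.7%), where 22.4% of all 710 miRNAs did so. Both lay below for 3 members, where 26.8% of all miRNAs did so. A difference of at least 2-fold upward was seen for 33 of the 710 miRNAs, of which 20 were members, and 0 members were 2-fold lower. In the limma fit over all miRNAs 2 (0.282%) passed an adjusted p of 0.05 and 0 members did, while 125 miRNAs had an unadjusted p under 0.05. With 2 arrays in each group the spread of single members was wide. The smallest adjusted p of a member was 0.125 in limma, for miR-467d*. Without shikonin replicate 2 the median difference over the 54 members was 0.21.

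**Figure D1:**
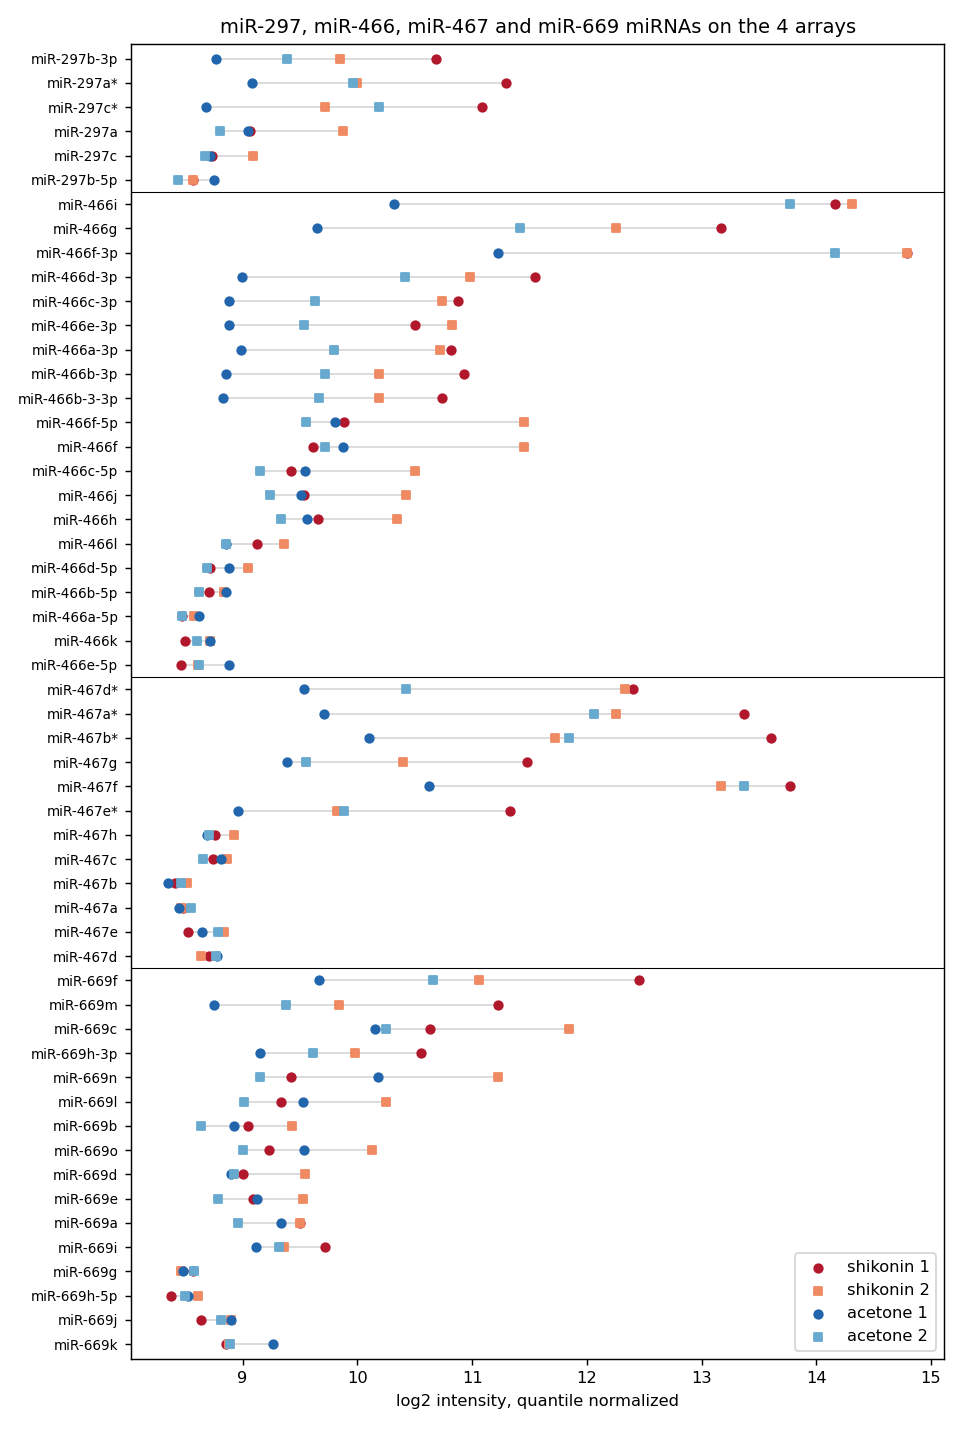
Log2 quantile-normalized intensity (x axis) of the 54 members on each of the 4 arrays, in blocks by family and within a family by the difference between shikonin and acetone. In the upper rows of each block acetone 1 (dark blue) stands apart at the low end, as for miR-466i with 10.32 on acetone 1 and 13.77 on acetone 2; further down, shikonin 2 (orange) is often the highest array.

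By family the median difference was 0.75 for miR-297, 0.87 for miR-466, 0.65 for miR-467 and 0.39 for miR-669. Both shikonin arrays lay above both acetone arrays for 4 of 6, 13 of 20, 4 of 12 and 8 of 16 members in that order. The shares were 66.7%, 65%, 33.3% and 50%, beside 22.4% of all 710 miRNAs. The medians lay farther apart by strand than by family. The 10 entries of the 3p strand, miR-466i among them by its matched sequence, had differences of 0.89 to 2.19 with a median of 1.42, and all 10 had shikonin arrays above acetone arrays. The 6 starred entries had differences of 0.96 to 2.39 with a median of 1.42, and 3 of 6 did not overlap. The 8 entries of the 5p strand had differences of -0.21 to 0.99 with a median of 0.01, 4 of them positive and 4 negative. Of these, 1 had both shikonin arrays above both acetone arrays (miR-466f-5p) and 1 below (miR-466e-5p, 8.46 and 8.61 on the shikonin arrays and 8.88 and 8.62 on the acetone arrays, above background on 1 array). The other 30 entries, with no arm in their name, had a median of 0.38. Above background on all 4 arrays were 9 of the 10 3p and 5 of the 6 starred entries, but 2 of the 8 5p entries. Those 2, miR-466c-5p and miR-466f-5p, had differences of 0.61 and 0.99. Strand and signal level were thus not separated in these medians.

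Of the 3p strands of miR-466, miR-466f-3p was 14.79 on both shikonin arrays, and 11.23 and 14.17 on the acetone arrays. Its difference was 2.10 (SE 1.05, n = 2 per group), or 4.28-fold, and its equal shikonin values come from an equal rank on both arrays. miR-466i, which holds the C and A run shown above, was 14.17 and 14.31 on the shikonin arrays and 10.32 and 13.77 on the acetone arrays, with a difference of 2.19 (SE 1.23). For both strands acetone 1 was far below the other 3 arrays, and the distance between shikonin and acetone 2 was small beside that between the acetone arrays. miR-466d-3p was 11.55 and 10.98 on the shikonin arrays and 8.999 and 10.41 on the acetone arrays, a difference of 1.56 (SE 0.55). miR-466c-3p was 10.87 and 10.74 on the shikonin arrays and 8.88 and 9.63 on the acetone arrays, a difference of 1.55 (SE 0.28). miR-466b-3p was 10.93 and 10.19 on the shikonin arrays and 8.85 and 9.72 on the acetone arrays, a difference of 1.28 (SE 0.41). The acetone arrays of these 3 strands were closer to each other. As in miR-466f-3p and miR-466i, both stayed under the lower shikonin array. miR-466g, with no arm in its name, followed the same order, with 13.17 and 12.25 on the shikonin arrays and 9.65 and 11.42 on the acetone arrays (difference 2.18, SE 0.71). Only 4 or 5 of its 8 spots were filled on each array, and those on acetone 2 lay between 1136 and 14451.

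Among starred strands, miR-467d* was 12.40 and 12.34 on the shikonin arrays and 9.54 and 10.43 on the acetone arrays. Its difference of 2.39 (SE 0.33), or 5.23-fold, was the largest among the 54 members in this normalization, and the shikonin arrays lay close together. With cyclic loess miR-466f-3p (3.03) and miR-466i (2.85) were above miR-467d* (2.63), and in the deposited value table miR-297c* (4.68) was above it (3.88). miR-467a* was 13.37 and 12.25 on the shikonin arrays and 9.71 and 12.07 on the acetone arrays, a difference of 1.92 (SE 0.93). miR-467e* was 11.33 and 9.83 on the shikonin arrays and 8.96 and 9.89 on the acetone arrays, a difference of 1.15 (SE 0.63). In miR-467a* acetone 2 almost reached the lower shikonin array, and in miR-467e* it was above it, so the groups of miR-467e* overlapped. miR-297a* was 11.30 and 10.00 on the shikonin arrays and 9.08 and 9.96 on the acetone arrays (difference 1.12, SE 0.56). miR-297c* was 11.08 and 9.72 on the shikonin arrays and 8.68 and 10.19 on the acetone arrays (difference 0.96, SE 0.73), and its groups overlapped. miR-297b-3p was 10.69 and 9.85 on the shikonin arrays and 8.77 and 9.39 on the acetone arrays (difference 1.19, SE 0.38), with no overlap.

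Outside those names, miR-467f, which has the longest C and A run of the matched members, was 13.77 and 13.17 on the shikonin arrays and 10.63 and 13.37 on the acetone arrays. Its difference was 1.47 (SE 1.002) and its groups overlapped, since acetone 2 was above shikonin 2. miR-467g, the third strand with such a run, was 11.48 and 10.40 on the shikonin arrays and 9.39 and 9.55 on the acetone arrays, a difference of 1.47 (SE 0.40), with acetone arrays close together. Of the miR-669 entries, miR-669f was 12.45 and 11.06 on the shikonin arrays and 9.66 and 10.66 on the acetone arrays (difference 1.60, SE 0.61). miR-669m was 11.23 and 9.84 on the shikonin arrays and 8.75 and 9.38 on the acetone arrays (difference 1.47, SE 0.55). In both, shikonin 1 was the highest array and acetone 1 the lowest, the order seen in the starred strands.

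A second order of the arrays was seen in other members, with shikonin 2 highest and the remaining 3 arrays close together. miR-669c was 10.64 and 11.84 on the shikonin arrays and 10.15 and 10.25 on the acetone arrays (difference 1.04, SE 0.44). miR-466c-5p was 9.42 and 10.50 on the shikonin arrays and 9.55 and 9.15 on the acetone arrays (difference 0.61, SE 0.42). miR-466f-5p was 9.89 and 11.45 on the shikonin arrays and 9.80 and 9.55 on the acetone arrays (difference 0.99, SE 0.57). In these 3 members shikonin 2 stood alone at the high end, and the groups of miR-466c-5p overlapped. Of the 4 matched strands with U and G runs, miR-669n and miR-466j also had shikonin 2 highest. miR-669n was 9.42 and 11.23 on the shikonin arrays and 10.18 and 9.15 on the acetone arrays (difference 0.66, SE 0.74), so that its acetone arrays stood apart with acetone 1 the higher. miR-466j was 9.54 and 10.43 on the shikonin arrays and 9.51 and 9.24 on the acetone arrays (difference 0.61, SE 0.34). miR-466k was above background on 0 arrays and miR-467h on 1, with differences of -0.05 and 0.14. miR-466l was 9.12 and 9.36 on the shikonin arrays and 8.85 on both acetone arrays (difference 0.39, SE 0.11), and miR-669a was 9.50 on both shikonin arrays and 9.33 and 8.96 on the acetone arrays (difference 0.35, SE 0.15).

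Of the 42 members above background on at least 2 arrays, 3 had negative differences. miR-669k was 8.85 and 8.88 on the shikonin arrays and 9.26 and 8.89 on the acetone arrays (difference -0.21, SE 0.15). miR-669j was 8.63 and 8.90 on the shikonin arrays and 8.90 and 8.81 on the acetone arrays (difference -0.09, SE 0.13), and miR-467e was 8.52 and 8.84 on the shikonin arrays and 8.65 and 8.78 on the acetone arrays (difference -0.03, SE 0.14). All 3 stayed near background, and each difference was smaller than the wider of the gaps between its replicate arrays.

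For 13 hairpin names each strand had exactly 1 entry under that name, so that the strands could be set side by side. Some of these names stand for several genes, as miR-466b (8), miR-467a (10), miR-297a (3) and miR-466c (2). Their values may thus pool strands of more than 1 precursor. For 1 of the 8 genes of miR-466b the chip held a further 3p entry, miR-466b-3-3p (difference 1.22, SE 0.37). It has a name of its own and was not paired. In 13 of 13 the difference was larger for the 3p or starred strand. The gap between the strands was 0.58 to 2.49 with a median of 1.24. The differences of the 5p or unstarred strands had a median of -0.02, those of their partners one of 1.38. The largest gap was that of miR-467d, whose unstarred strand was 8.71 and 8.63 on the shikonin arrays and 8.77 and 8.77 on the acetone arrays (difference -0.10, SE 0.08) and whose starred strand had the difference of 2.39 given above. The smallest was that of miR-297a, with 9.06 and 9.87 on the shikonin arrays and 9.05 and 8.80 on the acetone arrays for the unstarred strand (difference 0.54, SE 0.31). miR-466b-5p was 8.71 and 8.84 on the shikonin arrays and 8.85 and 8.62 on the acetone arrays (difference 0.04, SE 0.12), and miR-466d-5p was 8.71 and 9.04 on the shikonin arrays and 8.88 and 8.69 on the acetone arrays (difference 0.09, SE 0.16). These strands were near background, where intensities without background subtraction can understate a difference. The part of this in the gaps was not tested. With a background correction (normexp) the differences of these 2 strands were 0.07 and 0.16, and the median gap over the 13 hairpins was 1.65. Of the 13 strands of the 5p or unstarred kind, 2 were above background on all 4 arrays and 5 on none, whereas 11 of their 13 partners were above it on all 4. In the 2 of the 13 in which both strands were above background on all arrays, miR-297a and miR-466c, the gaps were 0.58 and 0.94. The hairpin of miR-466f was not counted among the 13 because it had 3 entries under its own name, miR-466f, miR-466f-5p and miR-466f-3p. Its 5p and 3p entries were above background on all 4 arrays too, with differences of 0.99 and 2.10 and a gap of 1.10.

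**Figure D2:**
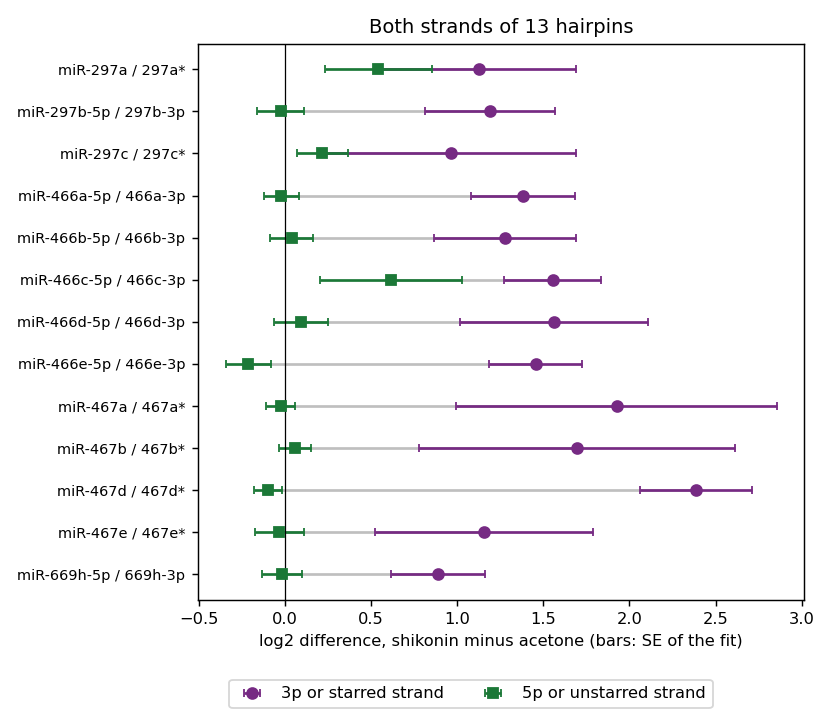
Log2 difference, shikonin minus acetone (x axis), of both strands of 13 hairpins (rows), circles for the 3p or starred strand, squares for the 5p or unstarred strand, with the SE of the limma fit as bars. In each row the circle lies to the right of the square; the squares cluster near 0 (median -0.02) and the circles around 1.38.

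After quantile normalization the replicate arrays also differed for these miRNAs, and in opposite ways for the strands. Acetone 2 was above acetone 1 in 10 of 10 3p strands (median difference 0.83) and in 6 of 6 starred strands (median 1.22), and in 0 of 8 5p strands (median -0.24). Between the shikonin arrays, shikonin 2 was above shikonin 1 in 2 of 10 3p strands and in 0 of 6 starred strands (medians -0.34 and -1.33), and in 7 of 8 5p strands (median 0.19). Only 2 of the 8 5p strands were above background on all 4 arrays. Before normalization the summed median spots of the 5p strands were 3616 on acetone 1 and 3864 on acetone 2. The order of the acetone arrays in the 5p strands thus depended on the normalization. Acetone 1 was the lowest array for all 10 3p and all 6 starred strands. Set against acetone 1 alone, the 3p strands had a median difference of 1.78 and the starred strands one of 2.14, and set against acetone 2 alone, 0.85 and 0.72. For the 5p strands these medians were -0.06 and 0.14. The medians of the 3p and starred strands were thus positive against either acetone array and larger against acetone 1. Without that array the gap between the strands was positive in 12 of 13 hairpins with a median of 0.75.

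**Figure D3:**
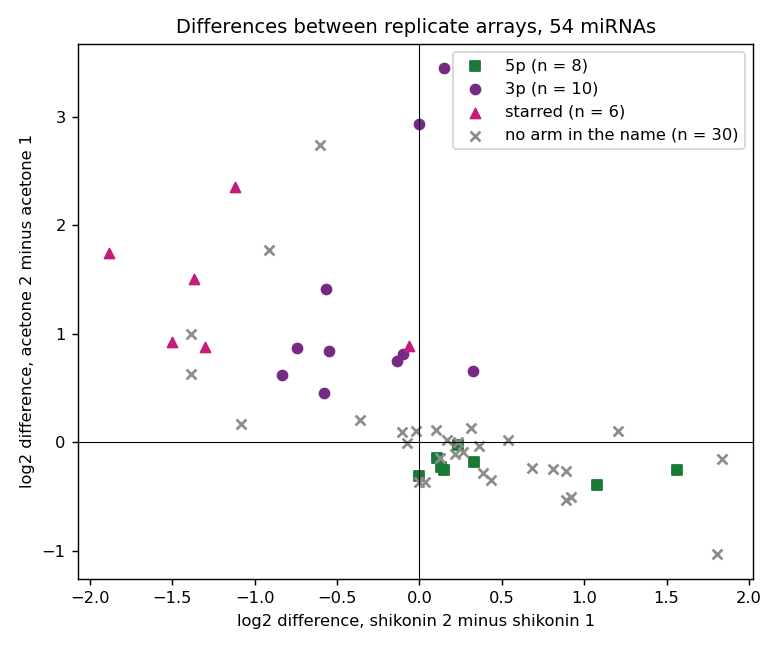
Log2 difference of quantile-normalized intensity between the acetone arrays (y axis) against that between the shikonin arrays (x axis) for the 54 members. Points are marked by the strand in the name, with miR-466i placed among the 3p strands by its matched sequence. The 3p and starred strands lie above 0 on the y axis and mostly left of 0 on the x axis, the 5p strands below 0 on the y axis and at or right of 0 on the x axis.

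Over the 54 members Pearson's r between the acetone arrays was 0.780 and between the shikonin arrays 0.877, whereas acetone 2 had r of 0.941 with shikonin 1 and 0.911 with shikonin 2. Acetone 1 had r of 0.682 with shikonin 1 and 0.879 with shikonin 2. Both acetone arrays thus had a higher r with shikonin 2 than with each other, and acetone 2 also with shikonin 1. Over the 656 other miRNAs r was 0.968 between the acetone arrays, 0.915 and 0.885 between acetone 2 and the shikonin arrays, and 0.866 and 0.842 between acetone 1 and the shikonin arrays. These correlations are across miRNAs of the same arrays, whose probes may be alike, and are given as a description.

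The single spots showed the same separation of acetone 1 before any normalization. The spots of miR-466f-3p lay between 10435 and 47499 on shikonin 1 and between 9858 and 37625 on shikonin 2, and between 1200 and 3337 on acetone 1 and between 13219 and 48043 on acetone 2. Those of miR-467f lay between 6834 and 22053 and between 5737 and 15532 on the shikonin arrays, and between 848 and 1752 and between 5513 and 27646 on the acetone arrays. In 17 of the 54 members, each spot on acetone 1 was below each spot on the other 3 arrays, which held for 3.24% of all 710 miRNAs (23, of which 6 outside the families). In 20 members each spot on acetone 1 was below each spot on both shikonin arrays, which held for 4.79% of all miRNAs (34). Each spot on acetone 2 was below each spot on both shikonin arrays in 0 members and in 0 of the 710 miRNAs. The spots of some members were scattered within an array: on acetone 2, those of miR-467a* lay between 1312 and 15708. The median SD of the log2 spots of starred members was 0.98 and 0.53 on the shikonin arrays and 0.19 and 1.35 on the acetone arrays, against 0.28 and 0.39, and 0.26 and 0.22, over all miRNAs. Empty spots were also more common, with 27.1% and 20.8% of the spots of starred members on the shikonin arrays and 33.3% on both acetone arrays, against 4.75% and 4.21%, and 7.01% and 6.41%, over all miRNAs. Of the 432 spots of the members, 56 were empty on at least 1 array and 32 on all 4.

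**Figure D4:**
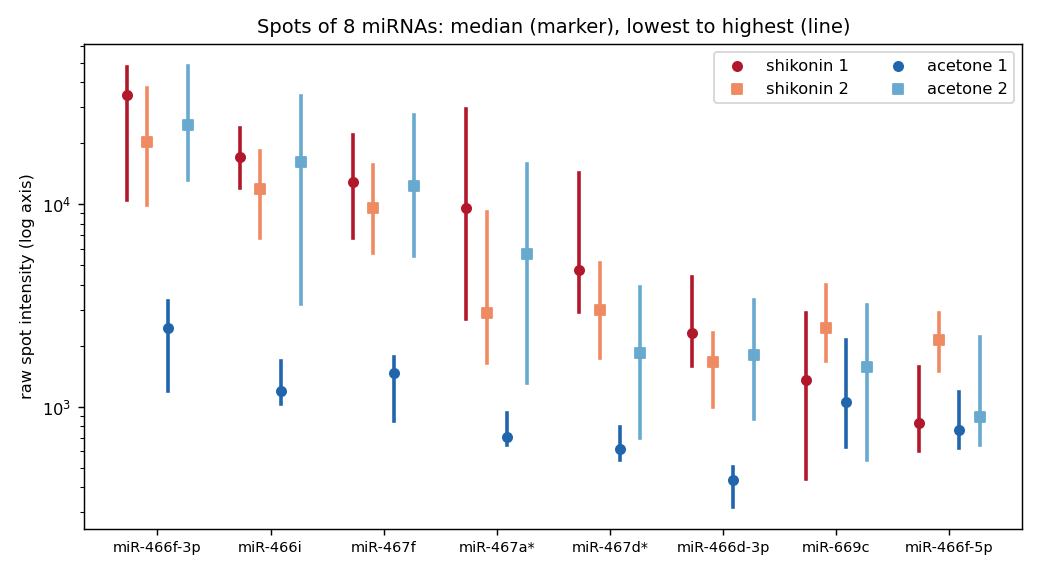
Raw spot intensity (y axis, log scale) of 8 members on the 4 arrays, with the median as a marker and a line over the lowest to the highest spot. For the first 6 members the spots of acetone 1 lie below those of the other arrays, with an overlap only between acetone 1 and acetone 2 in miR-467d*; for miR-669c and miR-466f-5p the 4 arrays overlap more and the median of shikonin 2 is highest.

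As a share of the summed spot medians of an array, the members took 25.9% and 17.9% on the shikonin arrays and 5.17% and 14.8% on the acetone arrays. The miR-466 entries took 13.7% and 9.92% on the shikonin arrays and 2.13% and 8.26% on the acetone arrays, and the miR-467 entries 8.17% and 4.17% against 1.16% and 4.21%. For miR-467 the share on acetone 2 was thus as high as that on shikonin 2. The miR-669 entries took 2.90% and 2.92% on the shikonin arrays and 1.48% and 1.67% on the acetone arrays. In this family the summed shares of each group lay close together, but single entries did not. After normalization their log2 differences between replicates (2 minus 1) were -1.39 to 1.80 for shikonin and -1.04 to 0.99 for acetone.

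**Figure D5:**
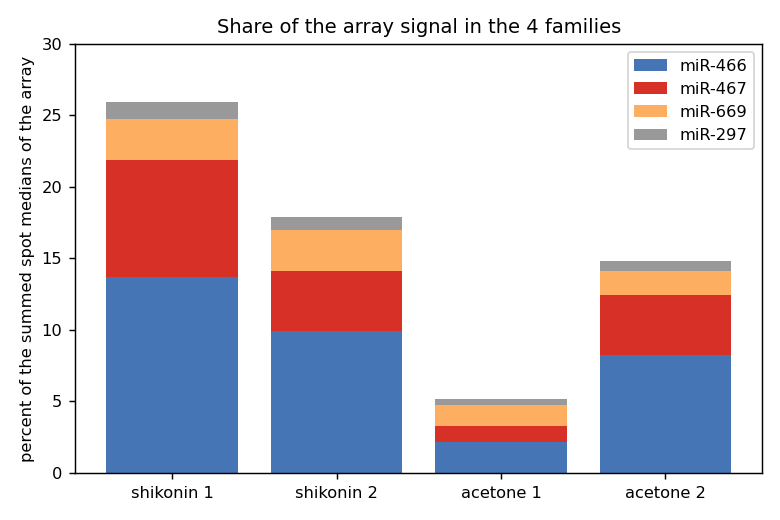
Percent of the summed spot medians of an array (y axis) held by the 4 families, stacked, on the shikonin arrays and the acetone arrays. Acetone 1 is the low bar with 5.17%, and acetone 2 with 14.8% is nearer to shikonin 2 with 17.9%.

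The repeat is not limited to the families, and 192 of the 656 other miRNAs had a matched sequence. With a run of 8 bases or more there were 2 of them, shown with the run in capitals.
miR-574-5p: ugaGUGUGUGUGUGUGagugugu
miR-1187: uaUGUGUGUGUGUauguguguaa
miR-574-5p (chr5:64970328-64970350, plus strand) was 12.53 and 13.91 on the shikonin arrays and 12.67 and 12.73 on the acetone arrays, a difference of 0.52 (SE 0.50). miR-1187 (chr5:82798964-82798986, minus strand) was 11.20 and 12.73 on the shikonin arrays and 11.52 and 11.13 on the acetone arrays, a difference of 0.64 (SE 0.57). Both had shikonin 2 as the highest array, the order of miR-669n and miR-466j. No miRNA outside the families had a C and A run of 8 bases or more among those matched. The longest was the run of 7 bases in miR-574-3p, which was 12.24 and 12.14 on the shikonin arrays and 10.00 and 10.13 on the acetone arrays (difference 2.13, SE 0.10), with arrays of each group close together. Runs of 6 bases were held by miR-342-3p, miR-713, miR-568 and miR-362-3p (C and A) and by miR-291a-3p (U and G). Their differences were 0.25 (SE 0.12), 1.27 (SE 0.33), 0.28 (SE 0.13), -0.30 (SE 0.14) and -0.12 (SE 0.09) in that order. Of these, miR-568 and miR-291a-3p were above background on no array, but miR-291a-3p is itself among the 30 miRNAs that set the background. The 113 passenger strands outside the families had a median difference of -0.01, but 83 of them were above background on no array. The 7 above background on all 4 arrays had differences of -0.40 to 2.09 with a median of 0.61, beside the median of 1.42 over the 6 starred members, of which 5 were above background on all 4.

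The members were also set out by the position of their genes. Those with genes inside Sfmbt2 alone had a median difference of 0.49 (42 members, 22 of them with shikonin arrays above acetone arrays), those with genes elsewhere alone one of 0.66 (7 members, 4 of them). Over all 710 miRNAs, 22.4% had both shikonin arrays above both acetone arrays. The 3 members with genes in both places had differences of 0.74 to 2.10.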

How the data were processed

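Total RNA of abdominal skin was hybridized to a Geniom biochip (febit), on which a bound miRNA primes its own extension with biotinylated nucleotides. The raw table deposited by the authors lists spot intensities, 8 per miRNA, not normalized. Their deposited value table holds 1 log2 value per miRNA and array, for which the methods name quantile normalization. Its array medians were 6.43 and 6.11 (shikonin) and 6.05 and 5.75 (acetone), and its centring stays unknown. Ranks in its replicate 2 columns equal those of the raw spots (Spearman 1), whereas ranks in its replicate 1 columns do not (0.921 for shikonin, 0.914 for acetone), so it served as an alternative only.

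Arrays were grouped by the treatment in their labels. The median of the filled spots was quantile normalized over 4 arrays, floored at 1 and put on the log2 scale. SEs and adjusted p-values (Benjamini-Hochberg over 710 miRNAs) came from limma 3.58.1 (R 4.3.3), and the code was tested on simulated data. An exact permutation test of 2 against 2 arrays cannot go below p = 0.333.

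The members, the marker lists (of keratinocytes, fibroblasts and mesenchyme, leukocytes, muscle and red blood cells) and the rules were chosen with earlier results of these data known. Named were, per family and among members above background on at least 2 arrays, the 2 highest and 2 lowest differences and the 2 highest levels. Both strands of hairpins were named too, and the 5 other miRNAs with the longest runs, with all those tied at 6 bases. Members with a matched sequence or a stated role, miR-466e-5p, miR-466f-5p and miR-467d were named after their values were seen.

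Alternatives covered normalization, background, spot summary, floor, filter, trend, the value table, a replicate block and leaving out each array. Counting near-identical members once was not run, since 7 of 54 sequences were matched.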

Additional observations from a re-analysis of the deposited data

How the results depend on the processing

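The medians of the 54 members and of the 3p strands kept their direction in every setting, whereas those that lay near 0 (5p strands, acetone arrays) changed sign in some. The median difference of the 54 members (0.58) was 0.99 with scaling to the 75th percentile of miRNAs above background on all arrays, which moved the median of all miRNAs to 0.63, 0.80 with quantiles of the miRNAs outside the families, 0.79 with normexp and 0.98 over members above background on at least 2 arrays. It was 0.21 to 0.70 with each array left out, lowest without shikonin replicate 2. The number of members with no overlap upward (29, beside 22.4% of all miRNAs) was 48 with that scaling (80.6% of all), 15 without normalization (15.1%) and 11 in the deposited value table (12.5%), whose replicate 1 columns depart from the raw rank order, and 33 to 41 with an array left out (33.7% to 37%). The median of the 5p strands (0.01) was 0.65, 0.16 and -0.72 in these 3 settings, and -0.055 to 0.14 with an array left out. The median of the 3p strands (1.42) was 1.83 with quantiles of the other miRNAs, 1.81 with normexp and 3.63 in the value table, and 0.85 (without acetone replicate 1) to 1.78 with an array left out. The median difference between the acetone arrays (0.06) was -0.37 with that scaling, 0.35 without normalization and 0.53 in the value table. The cause of these shifts was not tested.

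Limma called 2 miRNAs, 0 of them members. It called 85 with scaling over bright miRNAs (28 members), 83 without normalization (18), 105 with a floor at background (18) and 38 with an intensity trend (7). It called 1 with quantiles of the other miRNAs, with the mean of log2 spots and with the filter. It called 0 with cyclic loess, in the value table, with the replicate block and with any array left out, where 115, 23, 116 and 66 to 107 miRNAs had an unadjusted p under 0.05. The arrays share a number only. Their replicate differences correlated at -0.28 over 710 miRNAs, at -0.57 over the 54 members and at -0.07 over the 656 others. A crossed pairing, added after seeing the data, called 35 (11 members). Of 345 values of the 23 members named by rule, 21 changed sign, all in 6 members, and 17 members kept theirs. The 3p or starred strand had the higher difference in 13 of 13 hairpins with cyclic loess, with normexp, in the value table and without acetone replicate 2, and in 12 of 13 without acetone replicate 1. With 2 arrays a group and signal near background for 21 members on at least 1 array, small differences were not detectable.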
